A study of Mus musculus with 7899 samples.

Results

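The p300 knockout before gestation was measured in 198 single pancreatic β cells, taken from a series of 7899 samples. The cells were those of the p300 experiment labelled G0, gestation day 0: 83 labelled p300 knockout, with 43 in replicate 1 and 40 in replicate 2, and the others labelled p300 WT, with 30 and 85. All came from female C57BL/6J mice on a standard diet, and the labels call the replicates biological. The promoter or Cre that removed p300, the deleted exons, the age of the mice and how many animals made up a replicate are not stated in the labels. The same experiment held 195 knockout and 165 wild-type cells at G14.5, later in gestation, in 2 further replicates each. Islets were picked by hand, dissociated, sorted into plates and sequenced with Smart-seq3xpress, a plate-based full-length method. Reads per gene were summed over the cells of a replicate, here called a library, and levels are given in CPM, counts scaled to a common library size with the TMM method. The scale gives a gene's share of the RNA of a library and not its amount per cell.

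p300, encoded by Ep300, is a lysine acetyltransferase that uses acetyl-CoA to acetylate histone tails and transcription factors. It is recruited to enhancers by DNA-bound factors and shares most of its domains with its paralog CBP, encoded by Crebbp. In β cells it is known as a coactivator of islet transcription factors and of cAMP and CREB signalling. Pregnancy exposes these cells to lactogens, which act through the prolactin receptor and JAK2-STAT5.

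The libraries held 63078690 and 61281585 reads in the knockout and 26462938 and 91555236 in the wild type. Median reads per cell were 1549030 and 1522785 in the knockout against 876866 and 1068056 in the wild type, so the knockout cells were read more deeply. Ins1 and Ins2, the 2 mouse insulin genes, took 53.5% and 53.2% of knockout reads and 58.2% and 64% of wild-type reads. Mafa, a factor that defines mature mouse β cells, was low in every G0 library, at 3.17 and 4.72 CPM in the knockout and 1.97 and 0.163 CPM in the wild type. Other islet hormones were few: 1 cell, in knockout replicate 1, had over 5% of its hormone reads, insulin included, from Gcg, Sst, Ppy and Pyy. No cell was identical between libraries.

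The targeted gene was read in the knockout. Ep300 (chromosome 15, 81585351 to 81652077, GRCm38) stood at 15.9 and 11.9 CPM in the knockout and at 24.2 and 36.7 CPM in the wild type. Both knockout libraries lay below both wild-type libraries, and the log2 fold change was -1.13 (SE 0.26), which did not pass the threshold used throughout, an edgeR adjusted p under 0.05 over all genes tested (adjusted p = 0.0524). The miss was narrow and depended on the test: DESeq2, an alternative, gave an adjusted p of 0.00324. At G14.5 the values were 20.4 and 19.7 against 27.5 and 37.2 CPM, a log2 difference of -0.69 (SE 0.26). Counts per gene include reads outside a deleted part, so this level does not check the labels. Reads of Ep300 were found in 35 of 43 and 35 of 40 knockout cells and in 27 of 30 and 81 of 85 wild-type cells. When each cell was thinned to 300000 reads, 30 and 32 knockout and 26 and 79 wild-type cells had a read. Crebbp did not pass the test: 40.4 and 47.05 CPM in the knockout, 47.4 and 56.6 CPM in the wild type (log2 fold change -0.25, adjusted p = 0.533). Per kilobase of deposited gene length the mean level of Ep300 was 1.595 CPM in the knockout and 3.49 CPM in the wild type, and that of Crebbp was 4.27 and 5.08 CPM.

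Of 13475 genes tested at G0, 207 were called, 1.54% of the genes tested: 64 were higher in the knockout (0.475%) and the others lower (1.06%). At least 2-fold differences were found for 65.6% of the higher and 85.3% of the lower genes, and for 20.2% of all genes tested. The median log2 difference over all genes was -0.00. The plot of fold change against level shows the lower genes reaching larger folds than the higher ones. The replicates of all 207 called genes did not overlap, as was also true of 45.3% of all genes tested. Without knockout replicate 1, 26 genes were higher and 52 lower, and without knockout replicate 2, 15 and 53. As shares of the genes tested, the higher genes made up 0.787% without wild-type replicate 2, and 0.971% and 0.898% without G14.5 wild-type replicate 1 and 2, which share the estimate of spread; the lower genes made up 1.62% without G14.5 wild-type replicate 1. One alternative weighted cells equally, by the mean CPM per cell, left out the TMM scaling and used limma instead of edgeR. There the median of all genes was 0.19 and the split turned to 271 higher and 60 lower genes. Of the called genes 81.9% were higher, against 30.9% in the summed reads. The parts of weighting, scaling and test in this change were not told apart. Among the genes called from summed reads, 63 of the 64 higher and 44 of the lower were called in the same direction on that scale.

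**Figure D1:**
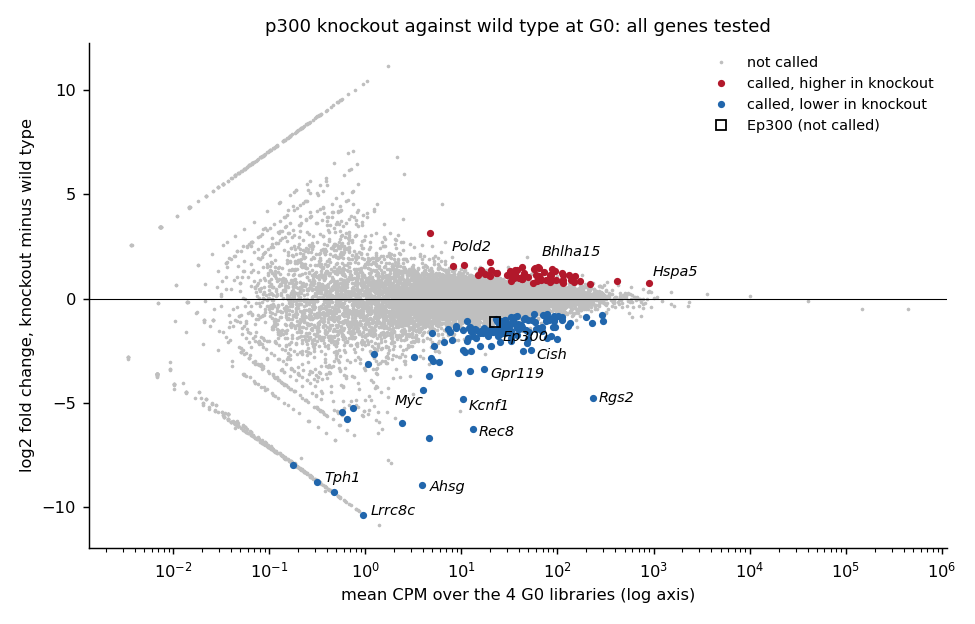
Each point is 1 of the genes tested, with its mean CPM over the 4 G0 libraries on a log x axis and its log2 fold change (knockout minus wild type) on the y axis; red and blue points are the higher and lower called genes. Ep300, marked with a square, lies among the lower genes but did not pass the test; the straight grey arms at low levels are genes with no read in 1 genotype.

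Some chaperones and folding enzymes of the endoplasmic reticulum (ER), where proinsulin folds, were called higher in the knockout. Of 35 tested members of a list of ER folding and unfolded protein response genes, 5 were called higher and 1 lower, against 0.475% and 1.06% of all genes. The list's median log2 difference was 0.44, beside -0.00 for all genes, and 32 of its 35 members lay above 0, beside 6616 of 13475 genes. Hspa5 encodes BiP, the main ER chaperone, which holds the stress sensors inactive when it is free. It stood at 1162 and 1085 CPM in the knockout and at 718 and 609 CPM in the wild type, 1.69-fold higher (log2 fold change 0.76, SE 0.15, adjusted p = 0.0281). Pdia4, a disulfide isomerase, stood at 196 and 170 CPM against 83.8 and 83.7 CPM (1.13, SE 0.19, adjusted p = 0.0134). Creld2, a secreted ER stress gene, stood at 227 and 187 CPM against 78.5 and 116.3 CPM (1.09, SE 0.21, adjusted p = 0.0258). Both knockout libraries were above both wild-type libraries for each of these genes, as replicates overlapped for none of the called genes. Dnajb11, a BiP co-chaperone, was 1.88-fold higher and Manf, an ER-resident stress factor, 1.83-fold higher. Without knockout replicate 1, none of these 5 genes passed the threshold (adjusted p from 0.0844 for Pdia4 to 0.219 for Dnajb11); without knockout replicate 2, Pdia4 alone passed (0.0520 for Creld2 to 0.107 for Hspa5). Without wild-type replicate 1 the adjusted p was 0.0633 for Creld2, 0.0836 for Manf and 0.0906 for Dnajb11, and without wild-type replicate 2 it was 0.0584 for Hspa5.

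The member that went the other way was Ern1, which encodes the stress sensor IRE1α that splices Xbp1 mRNA. It fell from 58.3 and 82.2 CPM in the wild type to 24.9 and 25.2 CPM in the knockout (log2 fold change -1.49, SE 0.24, adjusted p = 0.00972; 0.0561 without knockout replicate 1 and 0.0562 without knockout replicate 2). The other sensors were not called, with log2 differences of 0.64 for Eif2ak3 (PERK) and 0.05 for Atf6. Xbp1 itself was at 0.18 and did not pass either (adjusted p = 0.623). Large chaperones of the same compartment stayed near 0: Calr 0.01, Canx -0.17, Hsp90b1 0.08 and P4hb 0.04 on the log2 scale.

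Genes of neighbouring steps of the secretory route were also among the higher ones, which made up 0.475% of all genes tested. Srp19 and Srprb, parts of the signal recognition particle and of its receptor, were 2.21-fold and 2.01-fold higher, 2 of 27 tested members of the ER translocation list (median 0.22). Mcfd2, a cargo receptor partner for export from the ER, rose from 33.03 and 34.2 CPM to 91.2 and 96.9 CPM (1.49, SE 0.18, adjusted p = 0.00163). Bhlha15 encodes MIST1, a transcription factor known for scaling up the secretory apparatus of exocrine cells. It rose from 25.8 and 37.6 CPM to 93.7 and 91.4 CPM (1.54, SE 0.20, adjusted p = 0.00234), and it was read in all 83 knockout cells against 20 of 30 and 72 of 85 wild-type cells; thinned to 300000 reads, in 100% and 97.5% against 53.3% and 78.8%. Mcfd2 and Bhlha15 were called without each of the 8 libraries in turn. In the cytosol Dnajb1, a heat-shock co-chaperone, was 2.05-fold higher, 1 of 19 tested members of the heat-shock list, whose median was 0.50. Dnajb1, Srp19 and Srprb lost the call without knockout replicate 2 (adjusted p = 0.245, 0.0894 and 0.0777) and without wild-type replicate 1 (0.120, 0.0795 and 0.0567). Srp19 and Srprb also lost it without knockout replicate 1 (0.147 and 0.105), and Dnajb1 without wild-type replicate 2 (0.0517).

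The highest folds among the called higher genes with a mean of at least 10 CPM belonged to genes of varied roles. Pold2, a subunit of DNA polymerase δ, stood at 38.7 and 22.3 CPM in the knockout and 8.56 and 9.31 CPM in the wild type, 3.40-fold higher (adjusted p = 0.0125, and 0.0926 without knockout replicate 1). Ipo7, a nuclear import receptor, was 3.08-fold higher, Tuba1b, an α-tubulin, 2.76-fold, and Pgam1, a glycolytic mutase, 2.64-fold. Without knockout replicate 2 none of the last 3 passed (adjusted p = 0.0965, 0.0657 and 0.0800), and Ipo7 also missed the threshold without knockout replicate 1 (0.0755), wild-type replicate 1 (0.0551) and wild-type replicate 2 (0.0738). Srm, the spermidine synthase, rose from 28.3 and 34.03 CPM to 89.1 and 77.8 CPM, and Krt18, a keratin of simple epithelia, from 49.1 and 58.3 CPM to 139.6 and 134.4 CPM (adjusted p = 0.00234 and 0.00271). Cdk2ap2, a CDK2-associated protein, stood at 126.7 and 132.5 against 40.1 and 56.2 CPM. The genes of this paragraph were picked among those whose replicates did not overlap, so the lack of overlap is no further evidence.

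The ER stress response element is a composite site of NF-Y and ATF6 or XBP1 and was searched as CCAAT followed after 9 bases of any kind by CCACG, on both strands of RefSeq promoter windows (GRCm38.p6, 250 bases before to 50 after a gene's start). It lay in 39 of 32851 windows (0.119%) and in 18 of 12936 windows of genes tested (0.139%). It was found in 9 of 33 windows of the ER folding list (27.3%), in 2 of 64 windows of the called higher genes (3.12%) and in 0 windows of the called lower genes. The sites of the 2 called genes, Hspa5 and Creld2, are shown beside those of Calr and Canx, which carry the element and were not called, so that carriers of both kinds can be compared. Capitals mark the match, and each run is read on the strand of its gene; Creld2 and Calr hold it in reverse.
Hspa5, chr2:34772020-34772049: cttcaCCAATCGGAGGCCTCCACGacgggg
Creld2, chr15:88819515-88819544: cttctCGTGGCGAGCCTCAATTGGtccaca
Calr, chr8:84847069-84847098: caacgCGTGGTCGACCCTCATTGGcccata
Canx, chr11:50325794-50325823: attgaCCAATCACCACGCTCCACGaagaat

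**Figure D2:**
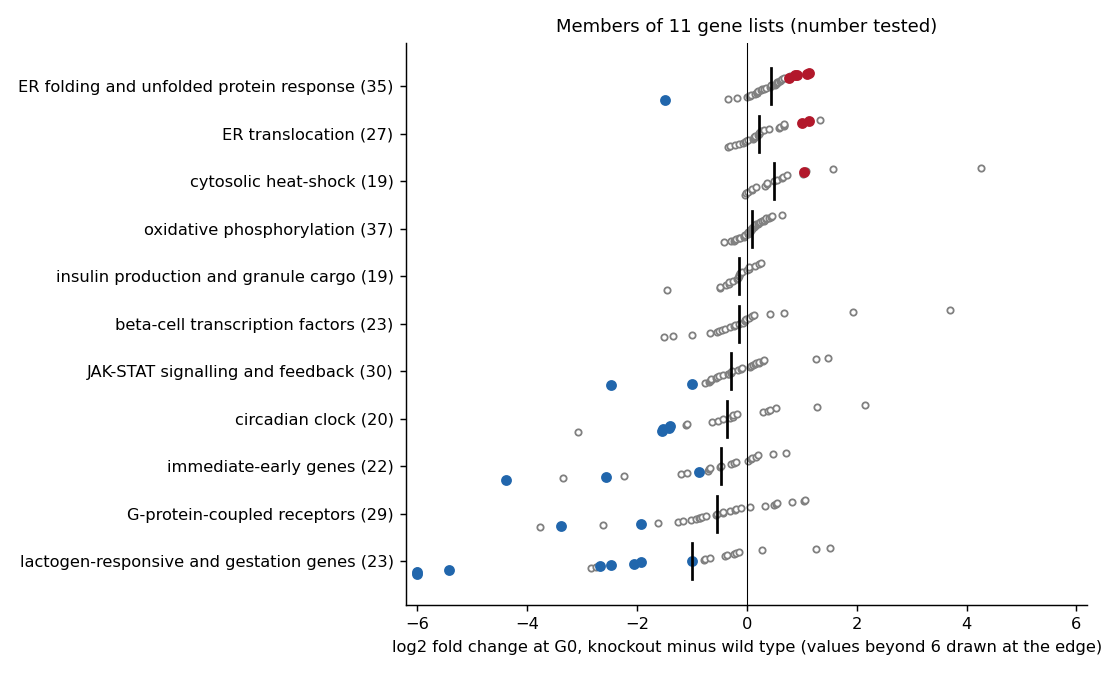
Log2 fold changes at G0 (x axis, knockout minus wild type) of the tested members of 11 gene lists; filled red and blue points are called higher and lower, open points are not called, and black bars are list medians. The ER folding median is 0.44 with 32 of 35 members above 0, and the lactogen-responsive list has its median at -1.0 with 8 of 23 members called lower. Of all genes tested, 6616 of 13475 lay above 0 and 1.06% were called lower.

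Part of the lactogen-responsive and gestation genes were called lower in the knockout before gestation. Of 23 tested members, 8 were called lower, 0 higher and 15 neither, and 20 lay below 0. The median log2 difference was -1.0, also with the 4 members without knockout reads set at their bound. Of all genes tested 1.06% were called lower, 6773 of 13475 lay below 0, and the median was -0.00. Earlier results of these data were known when the list was written, so its count is no independent evidence. Of the 8 called members, Cish, Tph1, Fmo1, Neb, P2ry1 and Cldn8 were not below all 6 control libraries of the series at G0. Cish, a STAT5-induced inhibitor of cytokine receptors, stood at 18.49 and 13.7 CPM in the knockout and at 120.8 and 58.4 CPM in the wild type (log2 fold change -2.47, SE 0.30, adjusted p = 0.00193). All libraries of one genotype were apart from the other, as for every called gene, and Cish kept its call without each of the 8 libraries. The median cell had 5.398 and 5.82 CPM of Cish in the knockout and 127.7 and 44.1 CPM in the wild type. Socs2, a second feedback inhibitor of the pathway, fell 1.99-fold (33.3 and 33.3 against 75.4 and 57.5 CPM, adjusted p = 0.0291). P2ry1, an ADP receptor coupled to calcium release, fell 3.79-fold (41.1 and 40.7 against 128.9 and 181 CPM, adjusted p = 0.00169). Fmo1, a flavin monooxygenase, fell 4.17-fold (adjusted p = 0.0138). Without knockout replicate 1 the adjusted p was 0.147 for Socs2 and 0.0795 for Fmo1; Socs2 also missed the threshold without knockout replicate 2 (0.124) and wild-type replicate 1 (0.0741). P2ry1 was called without each library.

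Tph1, the rate-limiting enzyme of serotonin synthesis and the best known pregnancy gene of mouse β cells, had 0 reads in both knockout libraries and 15 and 52 reads in the wild type, from 2 of 30 and 16 of 85 cells. Tph1 was called lower (adjusted p = 0.000362), and its wild-type mean was 28.6-fold above a floor of 3 reads over both knockout libraries. Among wild-type cells of other tables at G0, scaled together with these, Tph1 stood at 0 and 0.12 CPM in the Acss2 WT mice and at 0.809 and 0.52 CPM in the time course, so that 1 control library also had none. Lrrc8c, a volume-regulated channel subunit, had 0 reads against 15 and 236 and was called lower (adjusted p = 0.00693). Its wild-type mean of 1.88 CPM was 85-fold above the same floor (0.0221 CPM). That mean comes mostly from wild-type replicate 2, and reads of 1 molecule are not independent, so neither fold is a strict lower bound. On the joint scale Lrrc8c was at 0.0916 to 0.314 CPM in the other tables, against 0.540 and 3.10 CPM in the p300 WT mice. The p300 WT levels of both genes were low, at 0.559 and 0.705 CPM for Tph1 and 0.559 and 3.20 CPM for Lrrc8c. Neb and Cldn8 were also called at under 3 CPM in every G0 library; Neb missed the threshold without wild-type replicate 2 (adjusted p = 0.0525), and Cldn8 without that library (0.771), knockout replicate 1 (0.0805) or knockout replicate 2 (0.128). At G14.5 Tph1 and Cish were high in both genotypes: Tph1 stood at 126.6 and 138.5 CPM in the knockout and 178 and 138.9 CPM in the wild type, and Cish at 141.4 and 199.8 against 206 and 201 CPM.

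The receptors and signal carriers of the pathway were not called. Prlr, the prolactin receptor, stood at 430 and 434 CPM in the knockout and 573 and 802 CPM in the wild type (log2 fold change -0.67, adjusted p = 0.0636). Of 30 tested JAK-STAT genes, 2 were called, Cish and Socs2, both lower, and the median was -0.28. Of all genes tested 1.06% were called lower. Jak2 lay at -0.50, Stat5a at -0.44 and Stat5b at -0.33, without passing the test. The STAT palindrome searched as TTCNNNGAA lay in 2726 of 32851 promoter windows (8.30%) and in 886 of 12936 windows of genes tested (6.85%). It lay in 8 windows of the called lower genes (6.11%), near the share of genes tested. Cish holds 2 matches side by side in its RefSeq window. They begin at the RefSeq start of the gene and not before it, and they lie inside the gene as placed by GENCODE (from 107296026). Both are shown in capitals on the strand of the gene.
Cish, chr9:107296654-107296683: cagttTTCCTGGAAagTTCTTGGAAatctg

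Among receptors coupled to G proteins, Gpr119 and P2ry1 were called lower and none higher of 29 tested, against 1.06% and 0.475% of all genes. The median was -0.54, and it turned to 0.03 without wild-type replicate 1. Gpr119 (chromosome X, 48667979 to 48674478) is a Gs-coupled receptor for lipid amides that raises cAMP. It stood at 3.56 and 2.53 CPM in the knockout and 20.7 and 42.8 CPM in the wild type, 10.46-fold lower (log2 fold change -3.39, SE 0.41, adjusted p = 0.00193), and was called without each library. The reads were spread unevenly over cells: 1 cell held 44.7% and 54.7% of those in the 2 knockout libraries. Reads of Gpr119 were found in 16 of 43 and 18 of 40 knockout cells and 22 of 30 and 68 of 85 wild-type cells, or, thinned to 300000 reads, in 20.9% and 17.5% against 60% and 72.9%. Glp1r, the GLP-1 receptor, was not called (11.2 and 13.5 against 9.27 and 4.83 CPM), nor were Ffar1, the long-chain fatty acid receptor (log2 difference 1.06), and Gipr (-0.30).

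**Figure D3:**
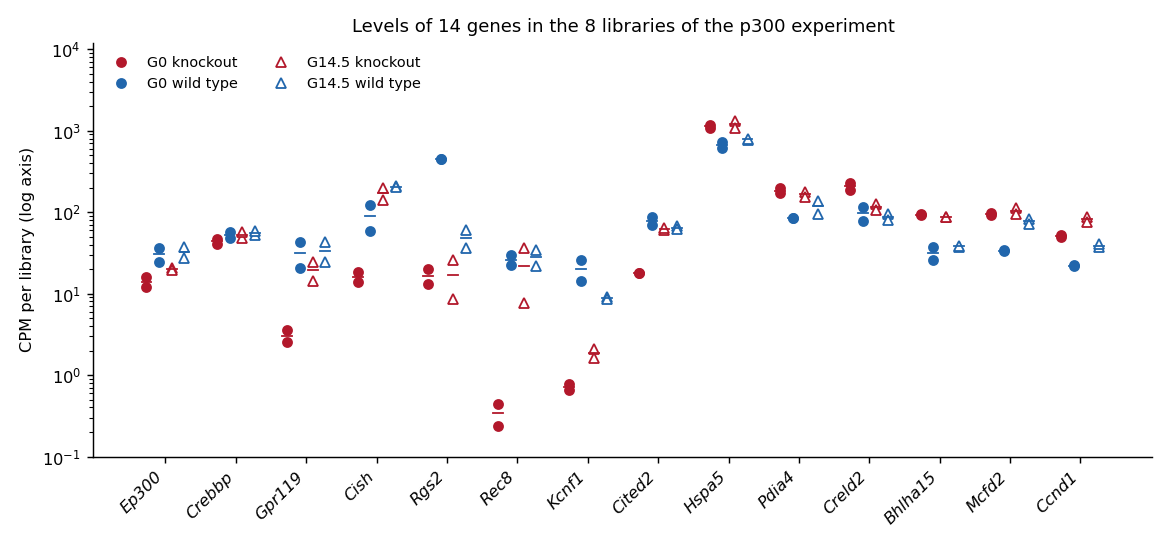
CPM (log y axis) of 14 genes in each of the 8 libraries, with G0 as filled circles and G14.5 as open triangles, the knockout in red and the wild type in blue; short lines are means of 2 libraries. At G0 the knockout lies below the wild type from Ep300 to Cited2 and above it from Hspa5 to Ccnd1, and the gap at G14.5 is narrower for Gpr119, Cish, Rec8 and Cited2.

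The largest falls among genes with a mean of at least 10 CPM were those of Rec8, Kcnf1 and Rgs2. Rec8, a cohesin subunit known from meiosis, stood at 0.438 and 0.238 CPM in the knockout and 22.3 and 29.8 CPM in the wild type, 76.6-fold lower (adjusted p = 0.000953); its reads numbered 30 and 16 against 598 and 2196. Kcnf1, a silent potassium channel subunit, fell 28.3-fold (0.657 and 0.774 against 14.4 and 26.1 CPM, adjusted p = 0.000362). In the knockout its reads came from 1 of 43 and 4 of 40 cells, and in the wild type from 13 of 30 and 58 of 85. Rgs2, which switches off Gq signalling and is induced by cAMP, fell 27.04-fold (20.2 and 13.01 against 445 and 453 CPM, adjusted p = 0.000362). Errfi1, a feedback inhibitor of the EGF receptor, fell 5.72-fold, and Klf11, a Krüppel-like factor, 4.77-fold. All 5 were called without each of the 8 libraries. Scaled together with the wild-type cells of other tables at G0, Kcnf1 was at 0.639 and 0.747 CPM in the knockout. It was at 13.9 and 25.3 CPM in the p300 WT mice and at 1.84 to 4.81 CPM in the other tables. Errfi1 was at 15.1 and 10.2 CPM in the knockout and 80.4 and 64.4 CPM in the p300 WT mice. It was at 15.3 and 21.4 CPM in the time course and 33.3 and 36.6 CPM in the Acss2 WT mice.

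Partners and targets of p300 moved unequally. Of 19 tested acetyltransferases and p300 partners, 2 were called, both lower, with a median of -0.25, against 1.06% of all genes called lower. Cited2, which competes with HIF-1α for the CH1 domain of p300 and CBP, stood at 17.9 and 18.004 CPM against 87.1 and 69.5 CPM (log2 fold change -2.12, SE 0.19, adjusted p = 0.000362) and was called without each library. Kat2b, the acetyltransferase PCAF, was 1.98-fold lower; the adjusted p of 0.0348 rose to 0.0926 and 0.191 without knockout replicate 1 and 2 and to 0.0813 without wild-type replicate 1. None of 18 histone deacetylases and 16 acetyl-CoA supply genes was called; Hdac5 had the smallest p of the deacetylases (-0.74, adjusted p = 0.0664).

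Transcripts that respond to stimulation were called lower in part of each list. Of all genes tested 1.06% were called lower and 0.475% higher, with a median of -0.00. Of 22 immediate-early genes, Myc, Npas4 and Egr1 were called, all lower (median -0.47, and 0.05 without wild-type replicate 1). Myc stood at 0.277 and 0.461 CPM against 6.63 and 8.73 CPM and was called without each library. Egr1 stood at 137.9 and 143.7 against 288 and 226 CPM, and Fos, at 0.20 on the log2 scale, was not called. Of 20 cAMP and CREB targets, Rgs2 and Per1 were called lower (median -0.15). Of 20 clock genes, Cry2, Per1, Nr1d2 and Rora were called lower, by 2.90-, 2.88-, 2.68- and 2.62-fold, with a median of -0.37; the core activators Clock and Arntl lay at -0.30 and -0.53 and were not called. The time of day at sampling is not stated in the labels, so its part in these values was not tested. Without knockout replicate 2 the adjusted p was 0.131 for Npas4, 0.121 for Egr1, 0.145 for Per1, 0.109 for Nr1d2, 0.142 for Rora and 0.0804 for Cry2. Without knockout replicate 1 it was 0.185 for Npas4, 0.174 for Egr1, 0.0757 for Per1 and 0.160 for Nr1d2. Without wild-type replicate 1 it was 0.468 for Npas4, 0.0696 for Egr1, 0.167 for Per1 and 0.0660 for Rora, and without wild-type replicate 2 0.0789 for Nr1d2.

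Genes of excitability and exocytosis went both ways. Of all genes tested, 0.475% were called higher and 1.06% lower. Rab3a, a vesicle GTPase, was 1.85-fold higher and Kcnk16, the potassium channel TALK-1, 2.18-fold higher. Rapgef4, the cAMP sensor EPAC2, was 1.77-fold lower and Cacna1c, an L-type calcium channel subunit, 2.73-fold lower; these 4 were the called ones of 27 tested, with a median of -0.18. Without knockout replicate 1 none of the 4 passed (adjusted p from 0.0754 for Cacna1c to 0.320 for Kcnk16), nor without knockout replicate 2 (0.0521 for Kcnk16 to 0.170 for Rapgef4). Without wild-type replicate 1 the value was 0.104 for Rapgef4 and 0.0645 for Kcnk16, and without wild-type replicate 2 it was 0.129 for Kcnk16. Ddit4, an mTORC1 inhibitor, was called lower in both the hypoxia list (2 of 22, with Cited2) and the amino acid response list (1 of 28), at 37.1 and 28.985 against 87.5 CPM or more in the wild type (log2 fold change -1.88); without knockout replicate 2 its adjusted p was 0.0562. Trp53inp1, 2.82-fold lower, was the 1 called of 21 p53 targets (0.0757, 0.126 and 0.0657 without knockout replicate 1, knockout replicate 2 and wild-type replicate 2).

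Identity genes of the β cell were not called. None of 23 tested β-cell transcription factors passed (median -0.14): Pdx1 lay at 0.13, Nkx6-1 at 0.42, Nkx2-2 at -0.04, Neurod1 at -0.07 and Pax6 at 0.10 on the log2 scale. The sign of Pdx1 turned to -0.20 without wild-type replicate 2, and that of Nkx2-2 to 0.22 without wild-type replicate 1. None of 19 insulin and granule genes passed either. Ins1 stood at 124690 and 121010 CPM in the knockout and 139560 and 205580 CPM in the wild type (-0.49, adjusted p = 0.125), and Ins2 at 367680 and 363660 against 433920 and 589420 CPM (-0.48, adjusted p = 0.0919). DESeq2, which called 3.87% of genes lower, gave both an adjusted p under the threshold (0.0443 for Ins1 and 0.0321 for Ins2). Both genes lay in the knockout below all 6 control libraries of the series at G0, as did 10.1% of all genes tested. Slc2a2, the glucose transporter GLUT2, was at 0.07, Ucn3 at -0.33 and Acss2, a source of nuclear acetyl-CoA, at 0.12. With both insulin genes left out of the library sizes, 0.408% of genes were higher and 0.987% lower. None was called of 15 glucose sensing, 37 oxidative phosphorylation, 36 sterol and fatty acid, 22 glycolysis, 27 interferon, 29 translation genes and 12 genes kept low in mature β cells.

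Ccnd1, encoding cyclin D1, was the 1 called of 30 cell-cycle genes (49.3 and 51.7 against 22.2 and 21.5 CPM, 2.31-fold higher, adjusted p = 0.00693), without loss of the call in any library left out. The list's median was 0.65, and 0.475% of all genes tested were called higher. Replication and mitosis genes were read in the knockout mostly from 1 cell: a single cell of knockout replicate 2 had reads of all 9 of Mki67, Top2a, Birc5, Cdk1, Ccnb1, Ccnb2, Ccna2, Foxm1 and Rrm2 and held 90.7% of that library's reads of them. Without knockout replicate 2 the list's median was -0.41. Those 9 genes were chosen after their values were seen. In the other 3 G0 libraries no cell had reads of 5 or more of these genes.

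Markers of other cell types differed in their sums, given here as CPM without TMM scaling, as are single genes other than Ahsg. The 15 acinar markers summed to between 0.151 and 10.9 over the 4 G0 libraries, the 8 endothelial markers to between 3.59 and 5.45 and the 9 stromal markers to between 0 and 1.29. The 8 ductal markers summed to between 128.9 and 180.1, mostly Krt7, and the 24 hepatocyte markers to between 1042 and 1938, mostly Ttr. The 6 δ-cell markers, led by Sst, summed to 763 in knockout replicate 1 and 196 in knockout replicate 2, and to 237 and 238 in the wild type. The 4 PP-cell markers, Ppy and Pyy above all, summed to 418 and 328 in the knockout and 443 and 203 in the wild type. In knockout replicate 1, 1 cell held 70.1% of the Sst reads, and in wild-type replicate 1, 1 cell held 84.6% of the Pyy reads. Without the 1 cell over the hormone limit, 0.453% of genes tested were higher and 0.988% lower. Beyond that cell, the part of these cells or transcripts in the results was not tested. Of the 12 immune markers, Ptprc, Cd74, H2-Aa, Cd3e, C1qb and C1qc had no read in any G0 library; the sum was 27.7 and 34.8 in the knockout and 82.8 and 47.1 in the wild type. Its 1 called member was C1qa (13.7 and 17.05 against 57.6 and 38.1 CPM, adjusted p = 0.00271). The 11 α-cell markers summed to between 2273 and 3453, led by Ttr, which β cells also express. Gcg alone was at 586 and 630.8 CPM in the knockout and 106.6 and 656.7 CPM in the wild type. Of the hepatocyte markers Ahsg, the secreted fetuin-A, had 0 and 2 reads in the knockout and in the wild type stood at 5.846 and 9.816 CPM, with reads in 16 of 30 and 42 of 85 cells (adjusted p = 0.0138; 0.0545 without knockout replicate 1 and 0.0678 without wild-type replicate 2). Alb was at 0.111 and 8.09 CPM in the knockout and 14.3 and 12.6 CPM in the wild type and was not called. No α-, δ-, PP-, acinar, ductal, endothelial or stromal marker was called.

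Other wild-type β cells at G0 allowed the levels to be placed, though only as a description: 2 libraries of the pregnancy time course and 2 of the Acss2 WT mice were counted in separate tables, scaled here together with the p300 libraries, and not tested. Of the 64 called higher genes, 60 lay in both knockout libraries above all 6 control libraries, as did 10.8% of all genes tested. Of the called lower genes 70.6% lay below all 6, as did 10.1% of all genes. The 6 controls include the p300 WT libraries that called these genes, so the shares over all genes are no fair baseline. Against the mean of the other 4 controls, the knockout mean was above for all 64 higher genes. It was below for 97.9% of the lower genes and for 51.1% of all genes tested. The knockout libraries are those that called the genes, so this too is only a description. Hspa5 was at 1130 and 1047 CPM in the knockout and 591 to 873 CPM in the 6 controls, and Bhlha15 at 91.2 and 88.2 against 19.2 to 41.2 CPM. Rec8 was at 0.426 and 0.230 CPM in the knockout against 21.5 to 43.9 CPM in all controls, and Gpr119 at 3.47 and 2.44 against 11.3 to 41.5 CPM. Ep300 itself was at 15.5 and 11.5 CPM against 23.45 to 38.5 CPM.

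The other 42 called lower genes were not below all controls, and several lactogen and signal genes were among them. Cish was at 17.98 and 13.2 CPM in the knockout, above the 7.84 and 8.76 CPM of the time course and below the 33.3 and 59.6 CPM of the Acss2 WT mice. Cited2 was at 17.4 and 17.4 CPM, against 15.7 and 11.5 CPM in the time course and 39.9 and 50.7 CPM in the Acss2 WT mice. P2ry1, Ddit4, Per1, Cry2 and Klf11 showed a like order: the time course libraries overlapped or spanned the knockout's values, and the Acss2 WT and p300 WT libraries lay above both knockout libraries. Rgs2 was at 19.7 and 12.55 CPM in the knockout, 21.2 and 32.1 CPM in the time course, 365 and 294 CPM in the Acss2 WT mice and 430 and 440 CPM in the p300 WT mice. For these genes the control mice of different tables differed about as widely as the genotypes did, and the part of the table (mice, day, preparation) in the result was not tested.

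**Figure D4:**
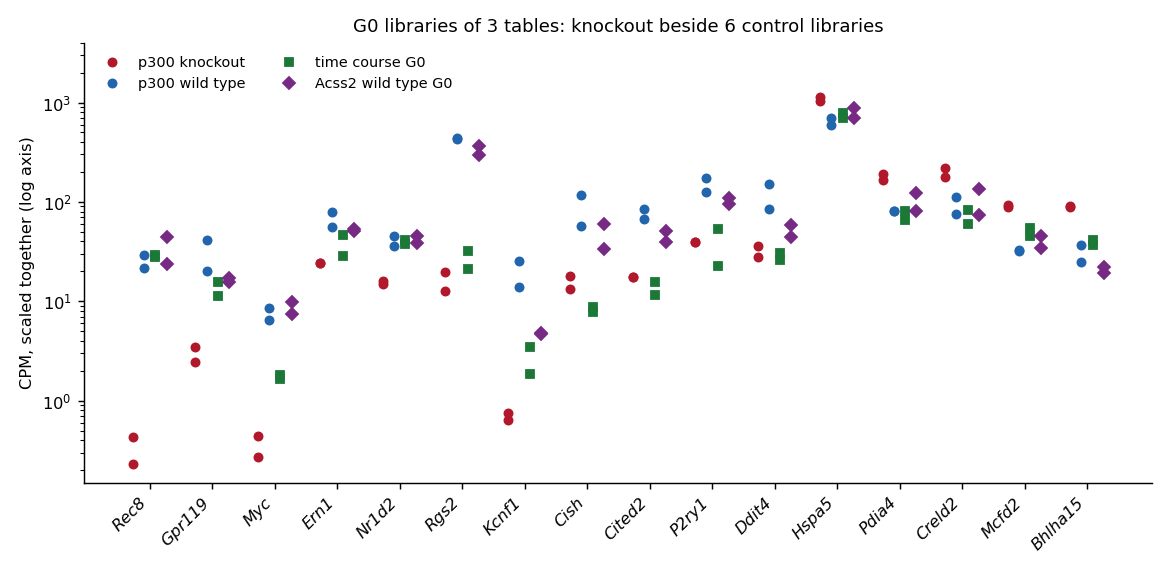
CPM of 16 genes (log y axis, all 8 libraries scaled together) in the G0 libraries of 3 tables: p300 knockout (red), p300 wild type (blue), time course (green squares) and Acss2 wild type (purple diamonds). From Rec8 to Kcnf1 the knockout lies below all 6 controls, for Cish and Cited2 it lies above the time course, for P2ry1 and Ddit4 it overlaps it, and from Hspa5 to Bhlha15 it lies above all controls.

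The genotypes were compared again at G14.5, in libraries that share none with G0. There edgeR called 0 of 13475 genes (0.00%), with 1333 at an unadjusted p under 0.05; DESeq2 called 294 (2.18%) and limma-voom 0.898%. Of the 64 genes higher at G0, 53 had the same sign at G14.5 (82.8%), as had 81.8% of the lower genes, beside 55.8% of all genes tested. The medians shrank, from 1.11 to 0.40 for the higher and from -1.52 to -0.35 for the lower genes. At an unadjusted p under 0.05, 27 of the higher and 43 of the lower genes differed in the same direction, and 2 and 5 in the opposite one. Of all 13475 genes tested, 897 did so in the same direction and 436 in the opposite one. Both stages share 1 estimate of spread, which also went into the calls at G0, so these counts are not independent of those calls. Bhlha15 (87.3 and 86.7 against 37.8 and 38.9 CPM, log2 1.18), Ccnd1 (1.07), Hspa5 (1308 and 1082 against 774 and 790 CPM, log2 0.61), Kcnf1 (2.10 and 1.63 against 9.0028 and 8.55 CPM, log2 -2.23) and Fmo1 (227 and 205 against 862 and 692 CPM, log2 -1.84) kept their direction with replicates apart.

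A test of the difference between the stages called 9 genes (0.0668% of those tested), 8 with the knockout effect lower at G0 and 1 with it higher. Cited2 differed by -2.07 (SE 0.26, adjusted p = 0.0109): the fall at G0 contrasted with 60.2 and 63.9 against 66.9 and 62.041 CPM at G14.5. Rec8 differed by -5.92 (SE 0.84, adjusted p = 0.0228), with 7.56 and 36.5 against 21.6 and 34.3 CPM at G14.5. P2ry1 differed by -2.55 (SE 0.32, adjusted p = 0.0109), being lower in the knockout at G0 and at 73.5 and 113.2 against 56.9 and 63.7 CPM at G14.5. Cd59a, a membrane complement inhibitor, was the 1 higher: 57.7 and 53.4 against 13.6 and 28.2 CPM at G0, and 20.0 and 20.4 against 40.0 and 59.2 CPM at G14.5 (2.69, SE 0.42, adjusted p = 0.0441). For Gpr119 (-2.59, adjusted p = 0.161), Cish (-2.22, adjusted p = 0.0773) and Hspa5 (0.15, adjusted p = 0.863) a difference between stages did not pass the test. The count was 1 without G0 knockout replicate 2 (Tph1), with adjusted p of 0.0570 for Cited2, Rec8 and Cd59a and 0.0527 for P2ry1. It was 55 and 42 without G0 wild-type replicate 1 and 2, and 30, 20 and 19 without G14.5 knockout replicate 1, knockout replicate 2 and wild-type replicate 1. Cd59a also missed the threshold without G0 knockout replicate 1 (0.0554) and without G14.5 wild-type replicate 2 (0.0563).

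**Figure D5:**
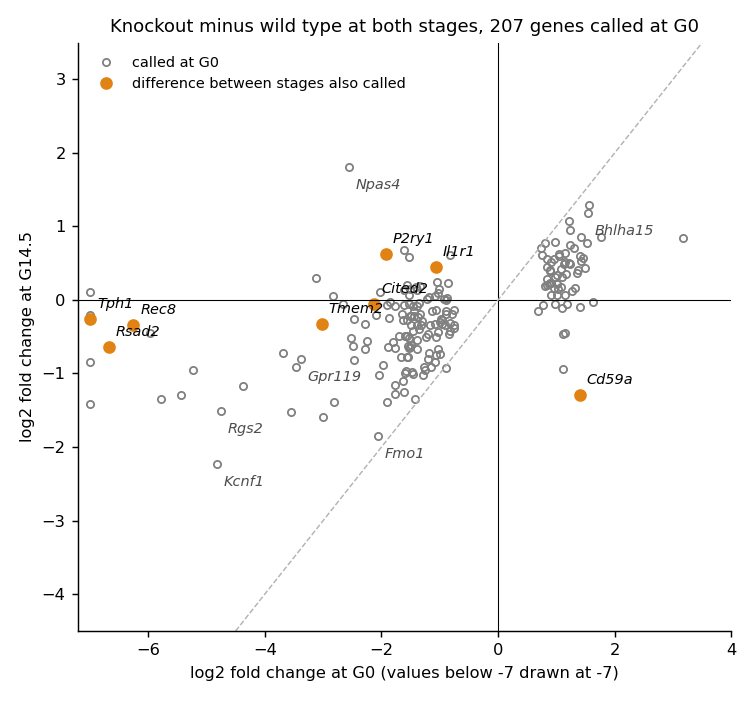
Log2 fold changes (knockout minus wild type) of the 207 genes called at G0, at G0 (x axis) and G14.5 (y axis); the dashed line marks equal values, and orange points are genes whose stages also differed by test. Most points lie between the x axis and the dashed line. Of the orange points Cd59a, P2ry1 and Il1r1 lie on opposite sides of 0 at the 2 stages, as do some others, such as Npas4. Tagap, the other interaction gene, was not called at G0 and is not drawn.

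A485, an inhibitor of the catalytic domain of p300 and CBP, was added at 5 µM to cultured mouse islets in normal human serum, against DMSO, in 2 replicates each. It acts on both enzymes, and the experiment shares no library with the knockout, and its values are set beside those above. A485 changed 348 of 13469 genes (2.58%), 79 higher (0.587%) and 269 lower (2.00%); without A485 replicate 1 and 2 the count was 61 and 55, and without DMSO replicate 1 it was 212. Of the genes lower in the knockout, 75.5% had a log2 difference below 0 with A485, as had 51.3% of all genes; 7 were called lower with A485 and 2 higher. Cited2 fell in both (-2.21 with A485, adjusted p = 0.000904), as did P2ry1 (-1.10, 0.00742), Fmo1 (-2.85, 0.0232) and C1qa (-2.70, 0.0109). Rgs2 went the other way, 1.42 higher with A485 (adjusted p = 0.0409). Of the 64 genes higher in the knockout, 14 lay above 0 with A485 and 50 below, 0 were called higher and 8 were called lower. Bhlha15 fell by 1.22 (adjusted p = 0.0457) and Dnajb11 by 0.68 (0.0374) with A485, and Hspa5 was at -0.59 without passing (0.0511).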

How the data were processed

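The authors deposited whole-number counts of reads per gene and cell; Trimmomatic 0.39, featureCounts 2.0.1 and GRCm38 are named per the submitters' processing notes, while aligner, annotation and duplicate removal are not stated there. Deposited gene lengths (another unit, in bases) served only for levels per kilobase. The p300 table ends in 1 gene row cut short, which was left out; 21176 genes were used. Reads were summed by group and replicate, filtered with filterByExpr, TMM-scaled and fitted as 4 group means over 8 libraries with edgeR 4.0.16 (quasi-likelihood test, R 4.3.3), with Benjamini-Hochberg adjustment over all genes tested. Groups have 2 replicates, which the labels call biological; p-values reflect the spread between them alone. Reads, not molecules, were counted, so reads of 1 molecule are not independent. The fit was tested on simulated data. Named genes were the markers, fixed β-cell genes, the 15 highest and 15 lowest called genes (mean 10 CPM or more, replicates not overlapping), every called list member, the member with the smallest p of lists without one, and the 5 interaction genes with the smallest p; Rsad2, Tmem2 and Il1r1, also called by that test, were named after their values were seen. Genes given at their log2 difference only are list members outside this rule, chosen for their role after their values were seen. Members and the 26 pathway and 11 marker lists were chosen with earlier results of these data known. Alternatives used limma 3.58.1 and DESeq2 1.42.0, other scalings and filters, fewer cells and each library left out. Gene positions are those of GENCODE vM21 (GRCm38), promoter windows those of RefSeq. Deposited normalized values were not used.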

Additional observations from a re-analysis of the deposited data

Results flagged for a closer look

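For 9 genes the effect of the knockout differed between G0 and G14.5 by a test of the difference itself (log2 knockout minus wild type at G0 minus the same at G14.5): Rec8 (-5.92), Rsad2 (-6.04), Tmem2 (-2.70), Il1r1 (-1.51), P2ry1 (-2.55), Cd59a (2.69), Tagap (-10.37), Cited2 (-2.07) and Tph1 (-8.52). Tph1 had no knockout read at G0, so its value depends on the prior count and is no bound. Tagap was at 0.672 and 0.164 CPM in the knockout and 3.61 and 7.29 CPM in the wild type at G0, and at 5.05 and 8.63 against 0.0220 and 0.115 CPM at G14.5. Rsad2, the interferon-induced viperin, was at 0.117 and 0.0595 against 7.86 and 10.6 CPM at G0, and at 2.38 and 4.4976 against 6.79 and 3.92 CPM at G14.5. Tmem2, a hyaluronidase of the cell surface, was at 1.37 and 1.16 against 9.42 and 11.2 CPM at G0, and at 21.6 and 19.6 against 29.6 and 22.004 CPM at G14.5. Il1r1, the interleukin-1 receptor, was at 189 and 196 against 353 and 453 CPM at G0, and at 274 and 221 against 188 and 176 CPM at G14.5. With 30 cells drawn per G0 library the adjusted p of the difference was 0.0725 for Rec8, 0.0803 for Rsad2, 0.0833 for Tmem2, 0.0883 for Il1r1, 0.0876 for Cd59a and 0.0680 for Tagap, so that P2ry1, Cited2 and Tph1 passed. With the replicate number as a block Il1r1 missed the threshold (0.0603). Without G0 knockout replicate 2 the adjusted p of the difference was 0.0587 for Tmem2, 0.0586 for Rsad2, 0.147 for Il1r1 and 0.0508 for Tagap. Without G14.5 wild-type replicate 2 it was 0.0663 for Tmem2 and Il1r1 and 0.0563 for Rsad2. Without G0 knockout replicate 1 it was 0.138 and without G14.5 knockout replicate 1 0.0612 for Il1r1.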

How the results depend on the processing

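Of the 94 named genes 64 were called, and no called gene changed direction in any alternative; 22 kept their call without each of the 8 libraries and 32 under every other alternative that gave a value. As shares of the genes tested, higher and lower genes at G0 made up 0.475% and 1.06%, against 2.29% and 3.01% without a filter on low counts, 2.12% and 3.64% among genes of 10 CPM or more, 0.306% and 0.708% with G0 libraries alone, 0.252% and 0.519% with limma-voom, 2.01% and 0.445% on mean CPM per cell, and 2.49% and 3.87% with DESeq2, which called again all genes called by edgeR. With 30 cells per G0 library 0.656% were lower. Leaving out 1 library gave 0.106% to 0.971% higher and 0.366% to 1.62% lower genes. Differences between stages (0.0668%) came to 1.496% without the filter, 0.237% at 10 CPM, 0.0226% with 30 cells, 0.0371% with limma-voom and 1.34% with DESeq2, and to 0.00705% to 0.388% without 1 library. At G14.5 (0%) the shares were 1.92% without the filter, 1.17% at 10 CPM, 0.898% with limma-voom and 2.18% with DESeq2, and 0.00707% to 0.832% without 1 library. A485 calls (2.58%) ranged from 0.387% to 2.68% without 1 library. The samples share replicate numbers only: the correlation of replicate differences was 0.00 between genotypes at G0 and -0.04 to 0.10 otherwise (7180 genes). With the replicate number as a block, 0.460% of genes were higher and 1.08% lower (0.523% and 1.04% with G0 libraries alone), 0.0816% differed between stages, 0% at G14.5, and 3.83% changed with A485. Genes that were not called and turned sign were Crebbp (0.02 per cell); Nkx2-2 (0.02 with 30 cells, 0.06 with limma-voom, 0.27 per cell), Acss2 (-0.00 with 30 cells) and Sst (-0.35 without cells over the hormone limit). Without 1 G0 library, log2 differences ranged from -0.20 to 0.56 for Pdx1, -0.26 to 0.22 for Nkx2-2, -0.63 to 0.05 for Ucn3, -0.11 to 0.28 for Slc2a2, -0.19 to 0.54 for Acss2, -8.99 to 0.00 for Gbp2, -0.55 to 1.52 for Sst and -9.83 to 0.00 for Pnlip. List medians kept their sign for ER folding (0.33 to 0.75), heat-shock (0.36 to 0.73), lactogen (-1.90 to -0.50) and clock genes (-0.53 to -0.21), but not for receptors (-0.79 to 0.03), immediate-early genes (-0.52 to 0.05), acetyltransferases and p300 partners (-0.36 to 0.02), cAMP and CREB targets (-0.42 to 0.03), exocytosis and excitability (-0.30 to 0.10), β-cell factors (-0.28 to 0.11) and cell-cycle genes (-0.41 to 1.13). On mean CPM per cell, which was not TMM-scaled, the median of all genes was itself 0.19. Only there were the medians of acetyltransferases and p300 partners, cAMP and CREB targets, exocytosis and excitability, and β-cell factors above 0. Each of them lay below that 0.19. The cause of these changes was not tested. Wild-type replicate 1 had the fewest reads and cells, which limits what was detectable at low levels.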

Other observations

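Cells with reads of 5 or more of 9 replication and mitosis genes (Mki67, Top2a, Birc5, Cdk1, Ccnb1, Ccnb2, Ccna2, Foxm1 and Rrm2, chosen after their values were seen) were found at G14.5 in both genotypes: 8 and 2 cells in the 2 knockout libraries and 4 and 3 cells in the 2 wild-type libraries. Insulin made up 32.4% to 72.6% of the reads of these knockout cells and 45.2% to 53% of those of the wild-type cells. The replicates of the genotypes overlapped.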
